A study of Mus musculus with 8 samples.

Results

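The expression of 5 genes of the mouse Adamts family of secreted metalloproteinases was followed in knee cartilage, namely the procollagen N-proteinases Adamts2, Adamts3 and Adamts14 and the Comp-cleaving proteinases Adamts7 and Adamts12. These 5 genes were taken by symbol and by what they are known to cleave from a table of 50462 gene identifiers. All 5 had enough counts to be tested. Earlier results of these data were known when the genes were chosen. The samples were medial knee cartilage caps of male wild-type C57BL/6J mice, 1 RNA-seq library per mouse. Naïve mice (n = 4, aged 11 weeks, day 0) had no surgery. DMM mice (n = 4, aged 17 weeks) were taken 42 days after destabilisation of the medial meniscus of the left knee, which models post-traumatic osteoarthritis by cutting the meniscotibial ligament. The DMM experiment had these 2 groups only, without sham-operated mice, so no group controlled for the operation itself. The DMM mice were 6 weeks older than the naïve mice, and the effects of surgery and of age cannot be told apart.

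Fibrillar collagens are secreted as procollagens with a propeptide at each end. Adamts2, Adamts3 and Adamts14 remove the N-terminal propeptide of procollagens I, II and III, which allows the trimmed molecules to pack into fibrils, while Bmp1 and the related tolloid proteinases remove the C-terminal propeptide. Adamts3 also activates the lymphatic growth factor Vegfc with its cofactor Ccbe1. Adamts7 and Adamts12 share a domain layout with a mucin-like region that the N-proteinases lack, and both degrade Comp (cartilage oligomeric matrix protein), a pentameric glycoprotein that binds collagen fibrils in cartilage and tendon.

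Every Adamts proteinase binds its catalytic zinc through histidines in a short conserved site, and the coding bases of that site tell the members apart by role. The first 30 coding bases of the site are shown for each gene, read on the coding strand from the GENCODE vM21 annotation of GRCm38, with the codons of the first histidine and the catalytic glutamate, the second histidine and the following glycine in capitals.
Adamts2: CACGAGacgggcCATgtgctgGGCatggag
Adamts3: CATGAAactggcCATgtgttgGGCatggag
Adamts14: CATGAGacaggcCATgtgcttGGCatggag
Adamts7: CACGAGctaggaCACagttttGGCattcag
Adamts12: CATGAActtggtCACagcttcGGCatccag
The N-proteinases shared 26 or 27 of the 30 bases with each other, and Adamts7 and Adamts12 shared 23. Across the roles, 16 to 20 bases were shared. In all 5 genes an intron follows base 17 of the site, between exons 7 and 8, or 8 and 9 in Adamts3, so each site spans that intron in the genome. The site starts at codon 409 of 1213 in Adamts2 (chr11:50775403-50776131, plus strand) and at codon 398 of 1204 in Adamts3 (chr5:89707436-89707818, minus strand). It starts at codon 388 of 1209 in Adamts14 (chr10:61225468-61227123, minus strand), codon 372 of 1657 in Adamts7 (chr9:90179456-90180637, plus strand) and codon 396 of 1600 in Adamts12 (chr15:11241529-11255561, plus strand).

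The libraries held between 12479443 and 16548002 estimated counts, and no libraries of a group agreed within counting noise (their chi-square per degree of freedom was 7.34 or more). Col1a1, the main collagen chain of bone, tendon and fibrocartilage, exceeded the cartilage collagen Col2a1 in every library by 2.73- to 8.73-fold. The 10 chondrocyte markers made up 0.242% to 0.388% of counts in naïve and 0.560% to 1.05% in DMM libraries. Col2a1 had the highest count of these markers in every library, and 4 of the 10 were called higher and 1, Cytl1, lower. The 10 osteoblast and osteocyte markers made up 0.141% to 0.210% and 0.341% to 0.612%, and 8 of these were called higher. Neutrophil lineage markers made up 0.887% to 1.24% in naïve and 0.418% to 0.878% in DMM libraries, erythroid markers 1.08% to 1.82% and 0.599% to 1.27%, and 10 of 10 and 9 of 10 of them were called lower. No marker of these 4 lists was at 0 in any library. Transcripts typical of bone and marrow were thus present beside those of chondrocytes in every library, and their shares moved between the groups. In whole tissue, a difference in the number of cells of a type and a difference in RNA per cell cannot be told apart, and the part of these shares in the results was not tested.

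Adamts2, Adamts14 and Adamts12 were upregulated at day 42 after DMM, by 1.82-, 1.82- and 2.16-fold. Adamts3 and Adamts7 had higher means in DMM libraries (1.57- and 1.45-fold) but did not pass the threshold, which was a DESeq2 adjusted P of 0.05 or less together with a change of 1.5-fold or more. Thus 3 of the 5 genes were called higher, where 7.38% of the 18707 genes tested were, and none was called lower, where 5.63% were (13.0% in either direction). The median log2 fold change was 0.86 over the 5 genes and -0.01 over all genes tested. The DMM libraries lay above the naïve libraries without overlap for 3 of the 5 genes, against 11.5% of all genes tested.

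**Figure D1:**
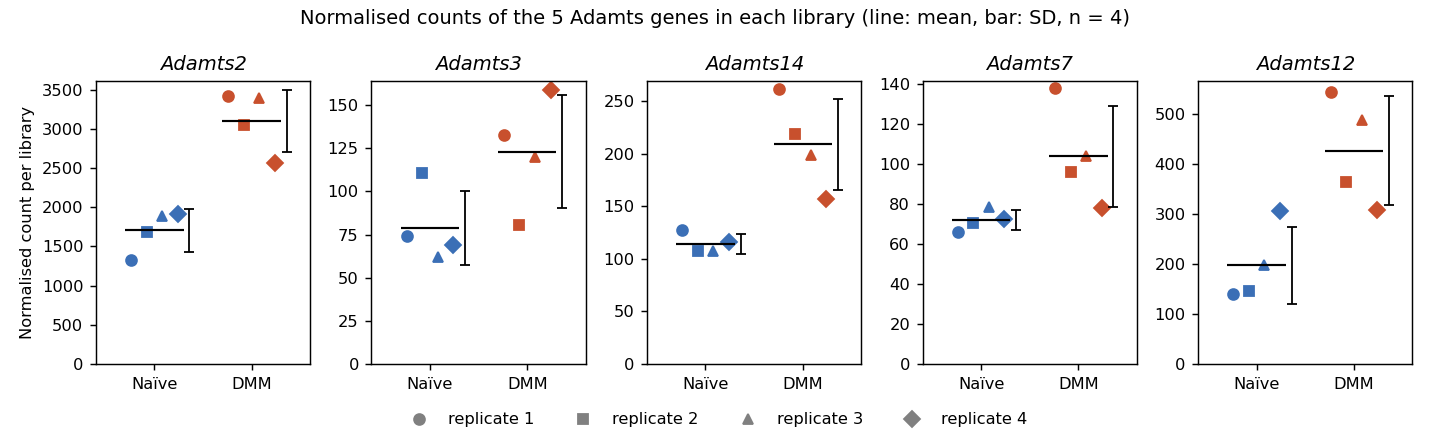
Normalised counts (linear axes from 0, 1 panel per gene with its own scale) of the 5 genes in the 4 naïve (blue) and 4 DMM (red) libraries, with the replicate number as the symbol, the group mean as a line and the SD as a bar. Adamts2 and Adamts14 separate the groups, Adamts12 of naïve replicate 4 (306.1) almost meets that of DMM replicate 4 (307.8), and Adamts3 and Adamts7 overlap.

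Adamts2 (ENSMUSG00000036545, chr11:50602084-50807573) is the main N-proteinase of procollagen I, and its loss causes dermatosparaxis, a disease of fragile skin. Its normalised counts, that is counts divided by the size factor of the library, were 1320.0, 1682.9, 1891.1 and 1917.3 in naïve and 3414.2, 3041.1, 3389.2 and 2565.0 in DMM replicates 1 to 4. The lowest DMM library lay well above the highest naïve library. The mean rose from 1703 ± 276 to 3102 ± 397 (SD, n = 4 in each group, as for all means below), a log2 fold change of 0.87 ± 0.15 (SE) with a DESeq2 adjusted P of 4.78e-07.

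Adamts14 (ENSMUSG00000059901, chr10:61197112-61273438) is an N-proteinase closely related to Adamts2. Its normalised counts were 127.5, 107.8, 107.0 and 115.7 in naïve and 261.2, 218.2, 198.4 and 157.0 in DMM libraries. The naïve libraries lay close together and the DMM libraries were spread over a wider range above them. The log2 fold change was 0.86 ± 0.19 (SE; by DESeq2, adjusted P = 0.000136), from a mean of 114 ± 9.52 to 209 ± 43.3.

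Adamts3 (ENSMUSG00000043635, chr5:89677087-89883334) processes procollagen II in vitro and is required for lymphatic development. Its normalised counts were 73.9, 110.4, 62.1 and 69.2 in naïve and 132.7, 80.6, 120.2 and 158.8 in DMM libraries. Naïve replicate 2 was high for its group and DMM replicate 2 low, and the groups overlapped through these. The log2 fold change of 0.65 ± 0.26 (SE) had a DESeq2 adjusted P of 0.0535. Adamts3 passed the threshold without naïve replicate 2 (0.85, adjusted P = 0.0127) and without DMM replicate 2 (0.81, adjusted P = 0.0113), and its adjusted P ranged up to 0.196 when other libraries were left out. Of 12 other settings it passed in 3, edgeR's TMM factors, a filter on low counts and total count scaling (adjusted P = 0.0452, 0.0476 and 0.00647). The last of these scalings moved the median log2 fold change of all genes tested to 0.14. Adamts3 missed with edgeR, with limma-voom and with no filter (adjusted P = 0.0711, 0.0694 and 0.0986). Without both DMM replicates 1 and 3 it missed as well (0.61, adjusted P = 0.303).

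Adamts12 (ENSMUSG00000047497, chr15:11064790-11349231) cleaves Comp and aggrecan. Its normalised counts were 139.8, 146.3, 196.9 and 306.1 in naïve and 544.0, 363.3, 488.2 and 307.8 in DMM libraries. Replicates 1 and 3 were the high DMM libraries, while DMM replicate 4 was level with naïve replicate 4. The mean was 197 ± 76.9 in naïve and 426 ± 109 in DMM libraries, a log2 fold change of 1.11 ± 0.26 (SE; by DESeq2, adjusted P = 0.000391). Without both DMM replicates 1 and 3, a choice made after these values were seen, the log2 fold change was 0.77 and missed the threshold (adjusted P = 0.0823). The same DMM libraries were the highest of their group in 4 of the 6 tendon and ligament markers, Scx, Tnmd, Kera and Thbs4. Tnmd, a membrane protein of tendon cells, had 69.7, 17.2, 153.9 and 33.4 normalised counts and Kera, a proteoglycan of tendon and cornea, 78.8, 10.7, 103.7 and 9.93 in DMM replicates 1 to 4. The other 2 did not follow this order, with Mkx at 95.4, 86.0, 129.2 and 137.2 and the widely expressed immediate early gene Egr1 at 471.9, 608.4, 571.3 and 703.1, both highest in DMM replicate 4. The 6 markers together made up 0.0165% to 0.0346% of counts in naïve and 0.0207% to 0.0439% in DMM libraries, 3 of the 6 were called higher, and none was at 0. In naïve replicate 4, the highest naïve library for Adamts12, the synovial fibroblast markers made up 0.690% of counts, against 0.191% to 0.387% in the other naïve libraries and 0.201% to 0.374% in DMM libraries. Most of that sum was Prg4 (lubricin), at 96845 normalised counts in naïve replicate 4, which superficial chondrocytes also make. Prg4, Thy1 (215.4), Pdpn (91.8), Cd248 (409.3), Clic5 (425.2) and Htra4 (664.4) had their highest naïve values in this library. Pi16 (420.7) and Dpp4 (285.7) had their lowest naïve values there. The part of tendon, ligament or synovial tissue in the Adamts12 counts was not tested.

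Adamts7 (ENSMUSG00000032363, chr9:90163069-90208071) cleaves Comp and is known for its role in vascular smooth muscle migration. Its normalised counts were 66.0, 70.5, 78.1 and 72.6 in naïve and 137.7, 95.7, 103.7 and 77.6 in DMM libraries. Only DMM replicate 4 fell within the naïve range. The log2 fold change of 0.53 ± 0.22 (SE) was below 1.5-fold and had a DESeq2 adjusted P of 0.0719. It passed both criteria in 1 of 8 fits without 1 library, the fit without DMM replicate 4 (0.65, adjusted P = 0.0278). Without DMM replicate 1, its highest library, the log2 fold change was 0.36 (adjusted P = 0.294). Without both DMM replicates 1 and 3 it was 0.27 (adjusted P = 0.654). Adamts7 also passed with total count scaling (0.68, adjusted P = 0.0157), a scaling that moved the median of all genes tested to 0.14. It missed with edgeR and limma-voom (adjusted P = 0.0708 and 0.0886). The Adamts7 gene overlaps the protein-coding gene Tbc1d2b on the opposite strand, and 1.48% of its 31-base words, the default word length of Kallisto, also occur in Tbc1d2b transcripts. Strand use in the counting was not stated, so reads of that stretch cannot be assigned to either gene with certainty.

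The other members shared few words with other genes, 2.09% for Adamts2, 0.290% for Adamts14, 0.156% for Adamts12 and 0 for Adamts3. Adamts2 also overlaps 3 non-coding genes and Adamts3 overlaps 2, all on the opposite strand. Adamts3 shared no word with them, and the gene that shared most words with Adamts2, Gm31181, was not among those that overlap it.

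DMM replicate 4 stood at opposite ends for different members. It had the lowest DMM count of Adamts2, Adamts14, Adamts7 and Adamts12 and the highest of Adamts3. The same library had the highest sums of chondrocyte markers (1.05% of counts) and of osteoblast and osteocyte markers (0.612%), and the part of this in the members' values was not tested. Over the 8 libraries, log2 normalised counts of Adamts2 and Adamts12 had a Pearson r of 0.943, and 0.824 after each group's mean was removed. Adamts7 had a within-group r of 0.757 with Adamts14, 0.710 with Adamts2 and 0.643 with Adamts12. Adamts3 had positive r with every other member over the 8 libraries (0.444 to 0.551) and negative r within groups (-0.34 to -0.15). These are descriptions over 8 libraries that share depth and tissue make-up with each other.

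Whether the members changed by the same factor was tested with ratios within each library, which need no scaling between libraries. The test was an exact permutation test (two-sided, 70 assignments, smallest possible P = 0.0286, adjusted over 6 ratios). After adjustment, a ratio whose groups separated fully could pass only if most of the other ratios separated fully too. A miss by the adjusted P is therefore no sign that a ratio stayed the same. The log2 ratio of Adamts2 to Adamts14 was 3.88 ± 0.35 in naïve and 3.91 ± 0.18 in DMM libraries, a difference of 0.03 (exact P = 0.914, adjusted P = 0.914). That of Adamts2 to Adamts3 was 4.45 ± 0.48 and 4.69 ± 0.51 (exact P = 0.571, adjusted P = 0.686), and that of Adamts14 to Adamts3 was 0.57 ± 0.40 and 0.78 ± 0.61 (exact P = 0.571, adjusted P = 0.686). By the unadjusted exact P, too, no change in the balance of the N-proteinases was detected. The SD of each ratio was larger than its difference.

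The log2 ratio of Adamts12 to Adamts7 was 1.08, 1.04, 1.33 and 2.07 in naïve and 1.98, 1.92, 2.23 and 1.98 in DMM libraries. The DMM libraries were tightly grouped near the level of naïve replicate 4, and the other naïve libraries lay below them. The difference of 0.65 had an exact P of 0.114 (adjusted P = 0.343). Since the adjusted P could hardly pass with so few assignments, it does not decide whether Adamts12 and Adamts7 changed by different factors. The unadjusted exact P did not show a difference either, with naïve replicate 4 among the DMM libraries.

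**Figure D2:**
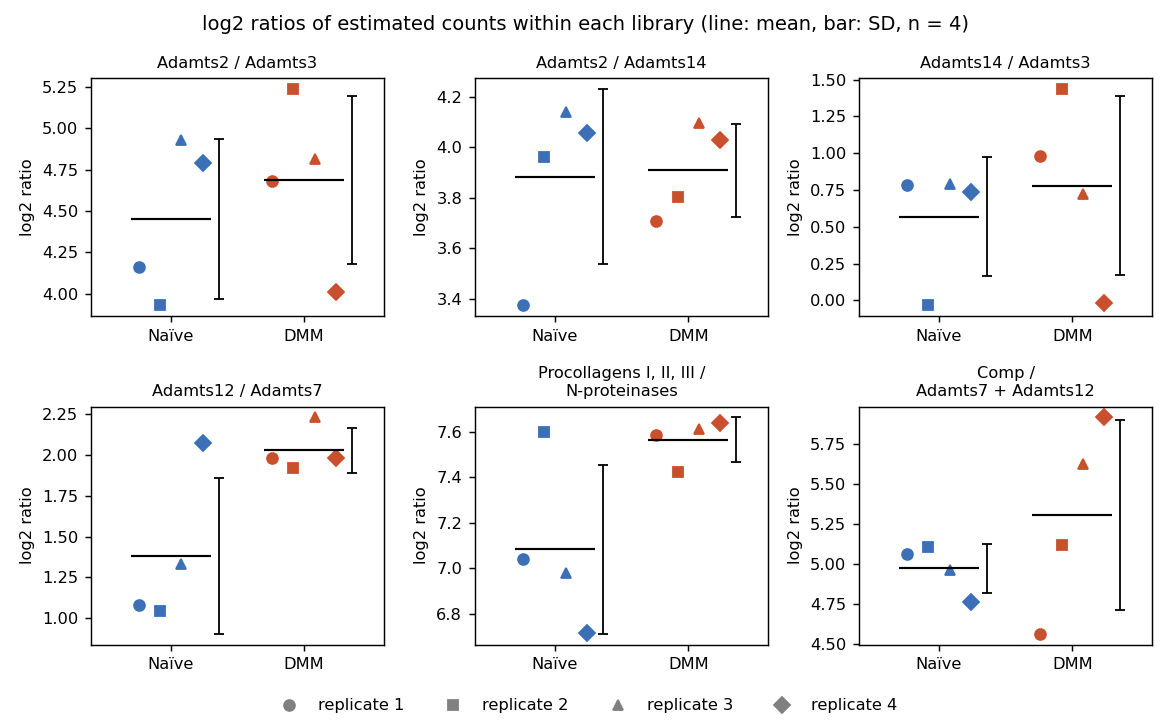
The 6 log2 ratios of estimated counts (own axis per panel, not starting at 0) in each naïve (blue) and DMM (red) library, with the replicate number as the symbol, the group mean as a line and the SD as a bar (n = 4). The groups overlap in every panel, and the procollagen to N-proteinase ratio of naïve replicate 2 (7.60) lies with the DMM libraries.

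Levels were compared between genes only per kilobase of the longest annotated transcript. Adamts2 had the highest level of all 19 Adamts genes in every library, 234 ± 38.0 normalised counts per kilobase in naïve and 427 ± 54.6 in DMM libraries, which was 27.7% and 32.3% of the summed level of the 19. Adamts12 had a level of 23.0 ± 8.97 in naïve and 49.6 ± 12.7 in DMM libraries, Adamts14 22.1 ± 1.84 and 40.2 ± 8.35, Adamts3 20.0 ± 5.48 and 31.3 ± 8.27, and Adamts7 13.3 ± 0.939 and 19.3 ± 4.68. Adamts2 was separate from the next member in both groups, whereas Adamts12, Adamts14 and Adamts3 overlapped with their neighbours in this order. Adamts3 and Adamts7 were separate in naïve and overlapped in DMM libraries. With the length of all merged exons instead, Adamts14 (22.0 in naïve, 40.2 in DMM) came above Adamts12 (18.1 and 39.0), and Adamts2 was still first, at 182 and 332. By longest transcript, Adamts10 and Adamts9 followed Adamts2 in every library, at 189 ± 19.0 and 105 ± 8.13 normalised counts per kilobase in naïve libraries. By merged exons the order behind Adamts2 differed, with Adamts10 at 94.3 ± 9.49, Adamts5 at 81.2 ± 17.3 and Adamts9 at 55.8 ± 4.33 in naïve libraries, and Adamts5 above Adamts10 in naïve replicate 4.

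**Figure D3:**
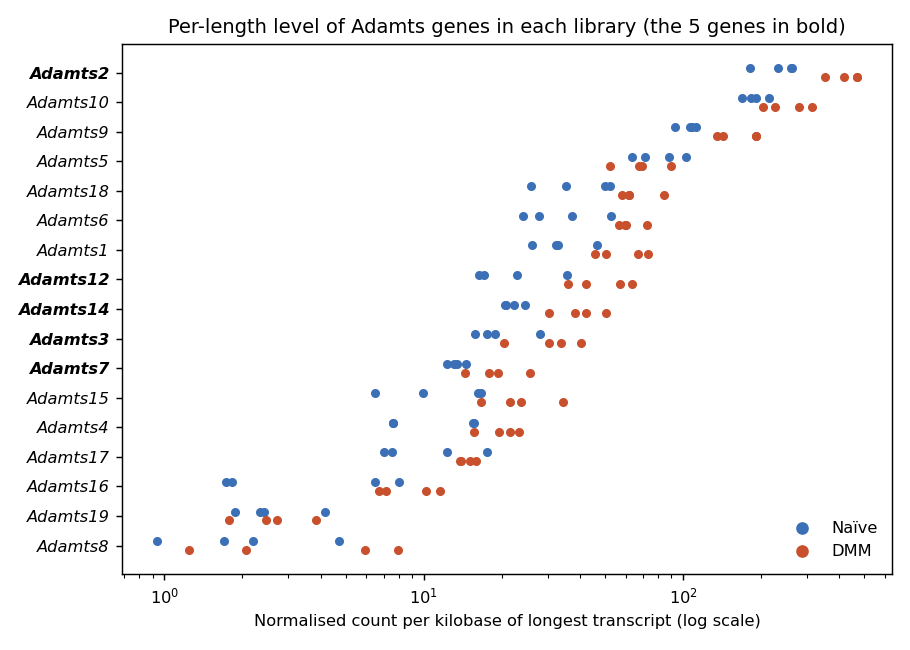
Normalised counts per kilobase of longest transcript (log axis) of the 17 Adamts genes with an adjusted P, each point 1 library, naïve in blue and DMM in red, ordered by mean, with the 5 genes in bold. Adamts2 leads in both groups (234 and 427 on average), and the other 4 lie between 12.3 and 63.4 in the middle of the family.

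Of the 14 other Adamts genes, 6 were called higher and none lower, with a median log2 fold change of 0.67 over the 14. Called were the aggrecan- and versican-cleaving proteinases Adamts1 (0.78, DESeq2 adjusted P = 0.00317), Adamts4 (0.79, adjusted P = 0.0355), Adamts9 (0.65, adjusted P = 0.000195) and Adamts15 (0.96, adjusted P = 0.0138). Adamts6, which acts on the microfibrils of the matrix, and Adamts18 were called as well (0.81, adjusted P = 0.00280 and 0.70, adjusted P = 0.0123). Another 6, among them the cartilage aggrecanase Adamts5, did not pass, at log2 fold changes from -0.22 to 0.98 and adjusted P from 0.0279 to 0.998. Adamts13, the von Willebrand factor protease, and Adamts20 had too few counts for an adjusted P, at 5.32 or fewer normalised counts per library, and Adamts13 was at 0 in DMM replicate 1. The count of 6 fell to 3 without naïve replicate 2 and to 3 without DMM replicate 1. Adamts1 and Adamts6 kept their calls in all 8 fits without 1 library, Adamts9 and Adamts18 in 6, Adamts15 in 5 and Adamts4 in 3. With edgeR, Adamts4 and Adamts15 missed the threshold (adjusted P = 0.0698 and 0.0533). Higher values were thus measured across much of the family, and no test was made that sets the 5 genes apart from the rest of it.

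**Figure D4:**
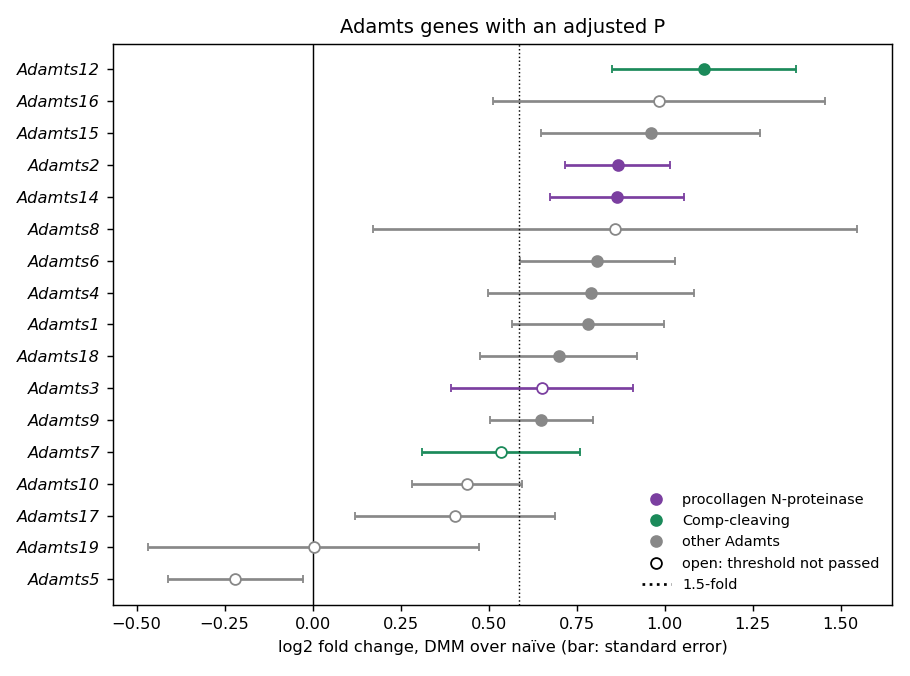
Log2 fold change (DMM over naïve, DESeq2) with its standard error for the 17 Adamts genes with an adjusted P, N-proteinases in purple, Comp-cleaving genes in green and others in grey. Filled points passed the threshold, the dotted line marks 1.5-fold, and Adamts12 (1.11) has the highest value while Adamts5 (-0.22) has the lowest.

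Among the 7 Adamts-like genes, which have the ancillary domains without the protease, 1 was called. Adamtsl3 had a log2 fold change of 1.05 (by DESeq2, adjusted P = 0.000648), and the other 6 ranged from -0.15 to 0.86. The call of Adamtsl3 was lost without both DMM replicates 1 and 3 (0.76, adjusted P = 0.0604).

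All 4 chains of the procollagens that the N-proteinases trim were called higher, with a median log2 fold change of 1.32. Col1a1 rose from 137561 ± 42360 to 323535 ± 50201 normalised counts (log2 fold change 1.23 ± 0.20, DESeq2 adjusted P = 4.77e-08) and its partner chain Col1a2 by 1.22 ± 0.18 on the log2 scale (adjusted P = 6.97e-09). Col2a1, the collagen of hyaline cartilage, rose by 1.41 ± 0.42 (adjusted P = 0.00738) and Col3a1, a collagen of loose and vascular tissue, by 2.02 ± 0.43 (adjusted P = 8.24e-05). Without both DMM replicates 1 and 3, Col2a1 missed the threshold (1.53, adjusted P = 0.0631). The log2 ratio of the summed procollagen chains to the summed N-proteinases was 7.04, 7.60, 6.98 and 6.72 in naïve and 7.59, 7.42, 7.61 and 7.64 in DMM libraries. Naïve replicate 2 lay with the DMM libraries and the other naïve libraries lay below. The difference of 0.48 did not pass the test (exact P = 0.0857, adjusted P = 0.343). As the adjusted P could hardly pass with so few assignments, whether this ratio changed was left undecided. In every library Adamts2 gave most of the N-proteinase counts, and Col1a1 and Col1a2 gave most of the procollagen counts. The ratio thus mostly sets procollagen I beside Adamts2 and says little about Adamts3, Adamts14 or Col2a1.

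At the other end of the procollagen, 3 of the 5 genes of C-propeptide removal were called higher. Bmp1, the main C-proteinase, rose by 0.76 ± 0.13 on the log2 scale (by DESeq2, adjusted P = 7.36e-07). Its enhancers Pcolce and Pcolce2 rose by 1.24 ± 0.22 and 0.85 ± 0.27 (adjusted P = 7.82e-07 and 0.0132). For Pcolce2 the groups overlapped, and the call was lost with edgeR (adjusted P = 0.0565), with limma-voom (adjusted P = 0.0901) and without naïve replicate 1, DMM replicate 3 or DMM replicate 4 (adjusted P = 0.0622, 0.0831 and 0.0586). Of the tolloid-like proteinases, Tll1 had a log2 fold change of -0.35 (adjusted P = 0.545), and Tll2 had 3.32 or fewer normalised counts per library and no adjusted P.

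Of the genes of Adamts3's lymphatic role, Vegfc was called higher (0.63 ± 0.22, DESeq2 adjusted P = 0.0257), a call lost in 6 of 8 fits without 1 library (all but naïve replicate 3 and DMM replicate 4, adjusted P up to 0.119) and with the replicate number as a block (adjusted P = 0.0641). Ccbe1 had a log2 fold change of 0.51 ± 0.17 with an adjusted P of 0.0194, below 1.5-fold, with the DMM libraries above the naïve libraries, and was called without DMM replicate 2 (0.59, adjusted P = 0.0122). Reln, a neuronal glycoprotein that Adamts3 inactivates, had a log2 fold change of 0.18 (adjusted P = 0.617).

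Comp had 6886.6, 7438.1, 8584.5 and 10244.3 normalised counts in naïve and 16094.3, 15934.6, 29210.0 and 23244.5 in DMM libraries. Every DMM library lay above every naïve library. The log2 fold change was 1.35 ± 0.20 (SE; by DESeq2, adjusted P = 6.74e-09), and the log2 ratio of Comp to the summed Adamts7 and Adamts12 was 4.97 ± 0.15 in naïve and 5.30 ± 0.59 in DMM libraries (exact P = 0.314, adjusted P = 0.629). Thbs1, thrombospondin 1, a substrate of Adamts7 in the vessel wall, fell by 0.56 on the log2 scale (SE 0.12, adjusted P = 9.50e-05), which is less than 1.5-fold, and its DMM libraries lay below the naïve libraries. It was called lower without naïve replicate 3 (-0.60), naïve replicate 4 (-0.59) or DMM replicate 3 (-0.65).

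None of the 3 inhibitors was called. Grn, whose product progranulin blocks Comp cleavage by Adamts7 and Adamts12, had a log2 fold change of 0.03 (by DESeq2, adjusted P = 0.893). A2m, the protease trap alpha-2-macroglobulin, was at -0.72 (adjusted P = 0.0969) and the metalloproteinase inhibitor Timp3 at 0.42 (adjusted P = 0.0772). A2m was called lower without naïve replicate 2 (-0.90, adjusted P = 0.0298) and without DMM replicate 2 (-0.91, adjusted P = 0.0487).

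Adamts proteinases are made as inactive proenzymes that furin-like convertases cut, and 1 of the 4 convertases examined was called. Pcsk5 rose from 335 ± 64.0 to 794 ± 34.2 normalised counts (log2 fold change 1.25 ± 0.15, DESeq2 adjusted P = 1.44e-14). Furin itself had a log2 fold change of 0.32 (adjusted P = 0.0318, below 1.5-fold), Pcsk6 0.48 (adjusted P = 0.0816) and Pcsk7 0.03 (adjusted P = 0.893). Pcsk6 was called without naïve replicate 4 (0.72, adjusted P = 9.03e-05).

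Among 12193 other protein-coding genes whose mean was 50 or more normalised counts, those with the highest Pearson r over the 8 libraries were listed for each member, as a description. For Adamts2 they were the mesenchymal transcription factor Twist1 (r = 0.998), the osteoblast membrane protein Tmem119 (r = 0.997) and the transcription factor Glis3 (r = 0.992), with r of 0.989, 0.985 and 0.957 within groups. For Adamts14 they were the sodium-calcium exchanger Slc8a1 (r = 0.983), the calcineurin subunit Ppp3cc (r = 0.980) and Adgra2 (r = 0.978). For Adamts12 they were Nynrin (r = 0.993), the phosphatase-like protein Sbf2 (r = 0.989) and the globin Cygb (r = 0.988). With only 3 of 12193 genes kept for each member, the lists had no gene in common, which by itself tells little about the members. An r picked as the highest of so many over 8 libraries is high in part through that choice. Over all the lists, r within groups ran from 0.883 (Adgra2) to 0.989 (Twist1). Adamts3 was followed most closely by the membrane-bound metalloproteinase Mmp16 (r = 0.983), Ppp1r13l (r = 0.941) and the sulfatase-modifying enzyme Sumf1 (r = 0.936), none of which was called (log2 fold changes 0.40, 0.43 and 0.19). Adamts7 was followed by the adenylate cyclase Adcy9 (r = 0.988), the amino acid transporter Slc38a7 (r = 0.982) and the xylosyltransferase Xylt2 (r = 0.973), which starts glycosaminoglycan chains, and none of these was called either. Twist1, Tmem119 and Glis3 were called higher (log2 fold changes 1.22, 0.99 and 0.74), as were Adgra2 (1.01), Nynrin (0.63) and Cygb (0.92). Nynrin fell below 1.5-fold without naïve replicate 1, naïve replicate 2 or DMM replicate 1 (0.53, 0.56 and 0.56).

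Promoter windows of 300 bases around the gene start, from RefSeq (GRCm38.p6), were found for 4 of the 5 genes, all but Adamts7. They held 77.3% G and C in Adamts2 and Adamts3, 76.7% in Adamts14 and 62.0% in Adamts12, which were above the values of 97.8%, 97.3% and 75.3% of the 32851 windows, in that order. The GC box GGGCGG, searched on both strands, matched 5 times in Adamts2, 7 times in Adamts14, 1 time in Adamts3 and not in Adamts12, while 35.7% of all windows held it. The AP-1 motif TGANTCA, the RUNX motif TGTGGT and the TATA box TATAAA had no match in any of the 4, and were present in 7.81%, 16.8% and 13.6% of all windows. The N-proteinase promoters were thus richer in G and C than that of Adamts12, and these matches are a description of the letters in the windows only.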

How the data were processed

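The deposited table holds estimated counts per gene, which the authors made by pseudo-aligning reads with Kallisto and summing transcripts with tximport. The genome in their methods is GRCm38, but the Ensembl release given there was built on GRCm39. The library kit differs between the labels and the methods, and strand use was not stated. Estimated counts were rounded and all 8 libraries fitted with DESeq2 (version 1.42.0, under R version 4.3.3) by the Wald test with its own size factors and default filtering and without covariates, with P-values adjusted by Benjamini-Hochberg over all genes tested. Each library came from a separate mouse. Alternatives were edgeR version 4.0.16 (quasi-likelihood), limma-voom version 3.58.1, other scalings, filters and thresholds, the replicate number as a block, and each library left out. Independent filtering at 0.05 and leaving out both DMM replicates 1 and 3 were added after seeing the data. Tests were first run on simulated data. Coordinates and symbols came from GENCODE vM21, looked up by identifier. Likeness used log2(normalised count + 1).

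The members and gene lists were chosen with earlier results of these data known. Named are all members, every gene of the 6 pathway lists, the called and the uncounted Adamts and Adamts-like genes, and the 3 genes most like each member. Adamts5, Adamts10 and the tendon and synovial markers were singled out after their values were seen.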

Additional observations from a re-analysis of the deposited data

Results flagged for a closer look

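In 6 of 112 groups of 4 values, 1 library stood apart from the other 3 by Dixon's criterion, where chance alone gives 5.6. The log2 ratio of Adamts14 to Adamts3 was -0.034 in naïve replicate 2 and 0.74 to 0.79 in the other naïve libraries. Timp3 had 4392 normalised counts in DMM replicate 1 and 6749 to 7202 in the other DMM libraries. Adamts18 had 476.5 in DMM replicate 4 against 328.9 to 349.9. Mmp16, the gene most like Adamts3, had 178.4 in DMM replicate 2 against 253.5 to 269.0, and Ppp1r13l had 71.8 in naïve replicate 2 against 48.4 to 51.0. Slc8a1 had 428.4 in naïve replicate 2 against 449.5 to 453.8.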

How the results depend on the processing

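The calls of Adamts2, Adamts14 and Adamts12 were kept in all 8 fits without 1 library, and the number of members called ranged from 3 to 4 in them. It was 5 with total count scaling and 0 against a 1.5-fold null, where the N-proteinases, the Comp-cleaving genes and the other Adamts genes also had 0 calls and the whole table had 88 in place of 2434. Against that null, 0 is no sign that the genes did not change, since it asks for a change beyond 1.5-fold. The Comp-cleaving genes had 2 calls with total count scaling and 0 without both DMM replicates 1 and 3, and ranged from 1 to 2 without 1 library, N-proteinase calls from 2 to 3 and those of the other Adamts genes from 3 to 8. Over the whole table, total count scaling gave 80.7% of calls higher in place of 56.7%, no fold threshold gave 3975 calls, and leaving out both DMM replicates gave 1475.

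The replicate numbers did not pair the libraries (correlations of deviations 0.01, 0.08, -0.18 and 0.10, and 2 of 8 libraries closest to their own number). With the replicate block, the members called were 3, the whole table had 2079 calls, Adamts3 and Adamts7 had adjusted P of 0.16 and 0.21 (DESeq2), and the 6 ratios had exact sign-flip P from 0.25 to 1.

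Without 1 library, the group difference in the log2 ratio Adamts2 to Adamts14 ranged from -0.14 to 0.11 and that in the log2 ratio Adamts14 to Adamts3 from -0.0090 to 0.47, and the smallest exact P of any of the 6 ratios was 0.0571, the smallest such a test can give. Small log2 fold changes changed sign: Tll2 (0.052 with total count scaling, -0.60 to 0.28 without 1 library), Reln (-0.029 to 0.31), Grn (-0.0034 to 0.11) and Pcsk7 (-0.0096 without both DMM replicates, -0.020 to 0.062 without 1 library). The cause was not tested. Adamts3 and Adamts7 had the fewest counts of the members, with group means of 71.8 to 123 normalised counts.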

Other observations

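Some values lay outside the comparisons above. Osteoblast and osteocyte markers were called higher for 8 of 10 genes, among them the phosphatase Alpl (log2 fold change 1.33, DESeq2 adjusted P = 2.08e-11), the osteocyte phosphoprotein Dmp1 (1.11, adjusted P = 2.67e-11) and the osteoblast transcription factor Sp7 (1.01, adjusted P = 6.43e-10). Of the chondrocyte markers, 4 of 10 were called higher and 1, Cytl1, was called lower (-1.21, adjusted P = 8.01e-08). Endothelial markers made up 0.0428% to 0.0485% of counts in naïve and 0.0477% to 0.0539% in DMM libraries, with 3 of 8 called higher and 1 lower. Macrophage markers (0.0486% to 0.0524% and 0.0476% to 0.0590%) had 1 of 8 called lower, osteoclast markers (0.0753% to 0.116% and 0.0934% to 0.161%) 1 of 8 called higher, and B cell markers (0.0222% to 0.0313% and 0.0265% to 0.0591%) none. Synovial fibroblast markers had 2 of 8 called higher, Thy1 (1.05) and Pdpn (1.54). Skeletal muscle markers made up 0.0105% of counts in DMM replicate 1 and 0.000803% to 0.00352% in the other libraries. DMM replicate 1 also had the highest normalised counts of Adamts2, Adamts14, Adamts7 and Adamts12, but not of Adamts3. The part of muscle tissue in these counts was not tested.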
